A study of Mus musculus with 24 samples.

Results

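The genes described here are 10 genes of neutrophil secondary and tertiary granules and of the neutrophil surface, read in sorted splenic monocytes of mice. They are Ltf, Ngp, Camp, Lcn2, Ly6g, Itgb2l, Wfdc21, Retnlg, Mmp8 and Mmp9, and each has 1 row among the 23930 amplicons of the table. The 10 genes were chosen by their role in neutrophils and selected on measured values too, because Ly6g, Itgb2l, Ltf, Wfdc21 and Retnlg were known to be among the genes with the largest differences between genotypes in Ly6C hi monocytes. The genotype differences in Ly6C hi monocytes and the differences between subsets are therefore given as a description, with no p-value. Calls from the fit are counted there to describe the genes, and are read as tests only in Ly6C low monocytes. As far as is known, Ly6C low values did not pick the genes. The genes were chosen with earlier results of these data known, however, so the Ly6C low tests may not be independent of that choice.

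RNA came from splenic CD11b+ Ly6G- SiglecF- NK1.1- cells, sorted into Ly6C hi and Ly6C low cells that the labels call macrophages and the study calls monocytes. The sort also used Fcgr4, low on the Ly6C hi and high on the Ly6C low cells. The 3 genotypes were wild type (WT), Slc29a3-/- and Slc29a3-/- Tlr7-/-, all untreated. Each combination of subset and genotype had 4 libraries, which makes 24 over the 6 groups. SLC29A3 carries nucleosides out of lysosomes, and TLR7 is a sensor of RNA and guanosine in endosomes. The WT mice were bought C57BL/6 mice. The mutant mice, bred from founders edited with CRISPR/Cas9, carry an inserted stop codon in Slc29a3 in both mutant genotypes and a small deletion in Tlr7 in the double mutants. Such edits leave a transcript that can be amplified, so the levels of Slc29a3 (means of 51.8 to 272 RPM over the 6 groups) and Tlr7 (180 to 527 RPM) do not check the genotypes. The labels do not say that the 4 libraries of a group came from separate mice, so the p-values measure the spread between these libraries.

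Each value is the number of reads of 1 amplicon per 1000000 reads of the library (RPM). By the step between the lowest values, a library held 12311037 to 14572266 reads, and 3 reads stand for 0.206 to 0.244 RPM. Amplicons differ in how well they amplify, so levels are compared between libraries of 1 gene and not between genes. In both subsets, WT replicates 1 to 3 (barcodes 11 to 16) stood apart from WT replicate 4. The Euclidean distance over log2(RPM + 1) was at most 24.3 among these 3 Ly6C hi libraries and at least 63.7 from them to replicate 4 (44.4 and 67.4 in Ly6C low). Barcodes 11 to 16 hold WT libraries only, so the comparisons of the 10 genes with WT are given with and without these libraries. Markers of the 2 subsets followed the labels for the most part. Ly6C hi monocyte markers (Ccr2, Vcan, F13a1, Fn1 and Csf1r) summed to 2670 to 8804 RPM in Ly6C hi and 1503 to 4036 RPM in Ly6C low libraries, and Ly6C low monocyte markers (Fcgr4, Nr4a1, Treml4, Ace, Cx3cr1 and Spn) to 528 to 2440 RPM and 5319 to 9893 RPM. In each genotype 4 of 5 Ly6C hi markers were called higher in Ly6C hi, but Csf1r was lower there, and 5 or 6 of the 6 Ly6C low markers were called higher in Ly6C low. Fcgr4 was itself used in the sort, so its direction is no check of the labels.

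Neutrophils fill their granules in a fixed order while they mature in the bone marrow. Promyelocytes make the primary granules with myeloperoxidase and serine proteases, myelocytes and metamyelocytes make the secondary granules with lactoferrin, cathelicidin and lipocalin 2, and band cells make the tertiary granules with gelatinase. The factor C/EBP epsilon drives the secondary granule genes, with GFI1 and PU.1 among the other factors of the lineage. Monocytes branch from the same progenitors and switch off most of these genes, and Ly6C hi monocytes give rise to Ly6C low monocytes.

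A run of 3 genes lies on mouse chromosome 9 (GENCODE vM21, mm10): Camp at 109847379 to 109849617, Ngp at 110419747 to 110423012 and Ltf at 111019271 to 111042767, a stretch of 1.2 Mb. Mmp8 is at 7558456 to 7568485 of the same chromosome. Lcn2 (32384633 to 32388252) and Mmp9 (164940780 to 164955850) are on chromosome 2, Itgb2l (96422288 to 96443619) and Retnlg (48872621 to 48874496) on chromosome 16, Ly6g (75155240 to 75159126) on chromosome 15 and Wfdc21 (83746940 to 83752642) on chromosome 11. The RefSeq promoter table for GRCm38.p6 held 8 of the 10 genes, all but Wfdc21 and Mmp9. In the 250 bases before the start, TTNNGNAA, a shortened form of the C/EBP site, had a match on either strand in 7 of these 8 promoters and in 36.9% of 27025 promoters. GAGGAA, the core of the PU.1 site, had a match on either strand in 5 of 8 and in 23.1% of all. A match is a run of letters and not a shown binding site. The starts are those of RefSeq, and GENCODE places part of some windows inside the gene, among them those of Ngp and Camp. The Lcn2 window (chr2:32387740-32387989) lay wholly inside the gene by GENCODE. Its match to each motif is counted above but is not upstream of the GENCODE start. Below are promoters of Ngp, Ltf and Itgb2l, which were higher in Slc29a3-/- Ly6C hi monocytes, of Mmp8, which was lower there, and of Camp, which had no match, each 5′ to 3′ and without the bases that GENCODE places in an exon. Capitals mark the matches on either strand, so some of them read as the reverse complement of these letters.
Ngp (chr9:110419558-110419746, plus strand): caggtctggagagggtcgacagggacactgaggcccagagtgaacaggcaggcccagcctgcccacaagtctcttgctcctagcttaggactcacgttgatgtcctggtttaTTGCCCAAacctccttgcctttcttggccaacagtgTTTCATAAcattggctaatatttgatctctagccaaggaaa
Ltf (chr9:111019042-111019270, plus strand): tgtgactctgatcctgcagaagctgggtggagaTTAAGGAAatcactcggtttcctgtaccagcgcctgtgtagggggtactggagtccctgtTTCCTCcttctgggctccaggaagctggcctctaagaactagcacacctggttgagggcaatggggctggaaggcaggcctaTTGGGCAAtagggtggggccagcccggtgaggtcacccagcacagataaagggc
Itgb2l (chr16:96443620-96443864, minus strand): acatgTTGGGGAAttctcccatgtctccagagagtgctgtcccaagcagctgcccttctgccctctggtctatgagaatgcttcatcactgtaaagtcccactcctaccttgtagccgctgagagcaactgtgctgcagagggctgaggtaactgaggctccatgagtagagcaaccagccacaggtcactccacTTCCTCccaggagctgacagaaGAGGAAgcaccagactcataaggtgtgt
Mmp8 (chr9:7558179-7558428, plus strand): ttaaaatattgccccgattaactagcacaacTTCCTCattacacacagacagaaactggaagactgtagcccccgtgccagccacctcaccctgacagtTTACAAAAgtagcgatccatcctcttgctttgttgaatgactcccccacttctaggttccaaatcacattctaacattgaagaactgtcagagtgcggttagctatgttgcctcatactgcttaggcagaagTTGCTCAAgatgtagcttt
Camp (chr9:109849618-109849706, minus strand): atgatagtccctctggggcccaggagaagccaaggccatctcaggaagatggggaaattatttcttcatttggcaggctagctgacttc
Ngp had matches to TTNNGNAA whose first bases lay at -138, -102 and -11 from the RefSeq start, the last of them in the part not shown. Ltf had them at -217 and -75 with GAGGAA at -157. Mmp8 had the same 2 motifs, at -151, -19 and -219, so these letters did not set apart the gene that differed in the other direction.

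In Ly6C hi monocytes, 7 of the 10 genes had their 4 highest values in the 4 Slc29a3-/- libraries: Ltf, Ngp, Camp, Lcn2, Ly6g, Itgb2l and Wfdc21. The genes were picked partly on such differences, and how many of all genes had this order was not counted. Mmp8 was lower in every Slc29a3-/- library than in every WT library, and Retnlg and Mmp9 were highest in WT replicates 1 to 3. Together the 10 amplicons took 1.42 to 2.19% of the reads of a WT library, 4.38 to 8.41% in Slc29a3-/- and 0.634 to 2.22% in Slc29a3-/- Tlr7-/-. Between 65.6 and 73.5% of these reads in a Ly6C hi library came from the Ngp amplicon.

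**Figure D1:**
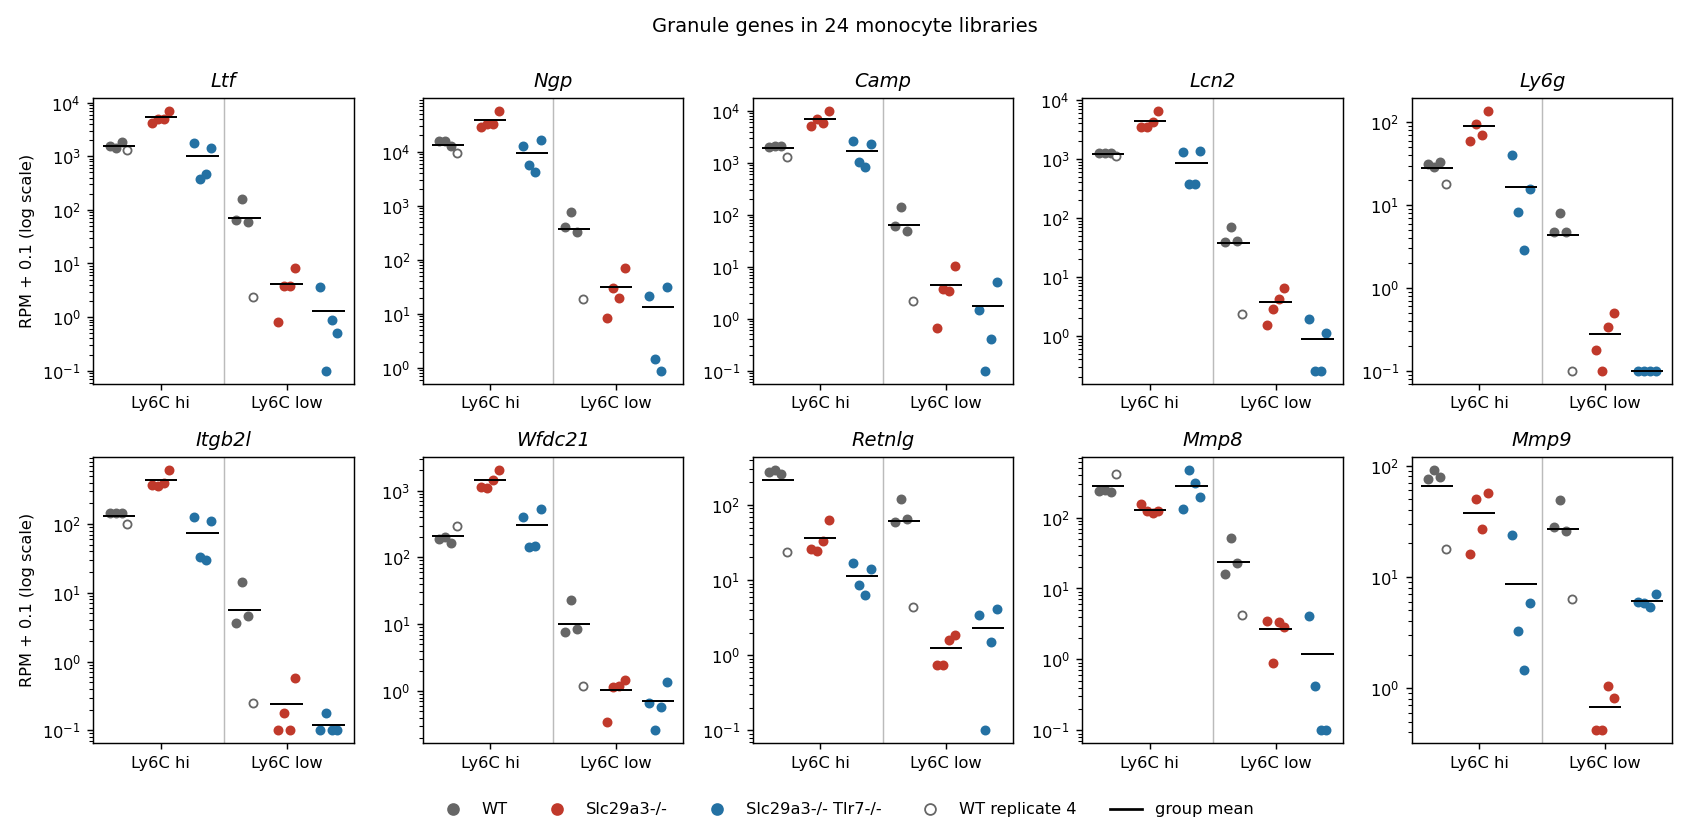
Level of each of the 10 genes in each of the 24 libraries, as RPM + 0.1 on a log axis, with the 3 genotypes of Ly6C hi monocytes on the left and of Ly6C low monocytes on the right of each panel. Points are libraries and bars are means of 4. The open circle of WT replicate 4 lies near libraries of a mutant genotype for all 10 genes in Ly6C low and for Retnlg and Mmp9 in Ly6C hi monocytes. For Mmp9 in Ly6C low these are the double mutants only, and the Slc29a3-/- libraries lie far below it.

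Ltf encodes lactoferrin, an iron-binding protein of secondary granules. In WT Ly6C hi monocytes it was at 1539, 1445, 1869 and 1282 RPM in replicates 1 to 4, in Slc29a3-/- at 4254, 4871, 5026 and 7073 RPM, and in Slc29a3-/- Tlr7-/- at 1766, 384, 457 and 1415 RPM. The Slc29a3-/- libraries lay above all others, while the double mutants fell into a pair near WT (replicates 1 and 4) and a pair below it (replicates 2 and 3). Lcn2 encodes lipocalin 2, which binds bacterial siderophores and so withholds iron. It had 1285, 1249.8, 1242 and 1104 RPM in WT, 3438, 3523, 4233 and 6589 RPM in Slc29a3-/-, and 1319, 382, 369.6 and 1387 RPM in the double mutants, with the same pairs of double mutant libraries.

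Camp encodes the precursor of the antimicrobial peptide cathelicidin, and Ngp a granule protein of the cystatin family. Camp was at 2058, 2099.7, 2145 and 1306 RPM in WT, 5234, 7111, 5793 and 10101 RPM in Slc29a3-/-, and 2603, 1039.8, 818 and 2268 RPM in Slc29a3-/- Tlr7-/- libraries. Ngp was at 15666, 16065, 12962 and 9604 RPM in WT, 29135, 32942, 32876 and 57331 RPM in Slc29a3-/-, and 12530.0, 5619, 4209.7 and 16251 RPM in Slc29a3-/- Tlr7-/- libraries. Replicate 4 was the highest Slc29a3-/- library for both. Wfdc21, a small protein with a WAP domain, had 188, 204, 164 and 291 RPM in WT, 1129, 1095, 1461 and 2013 RPM in Slc29a3-/-, and 403, 142, 146 and 525 RPM in the double mutants. It was 1 of 2 genes that were highest in replicate 4 among the WT libraries.

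Ly6g encodes the surface antigen by which neutrophils are recognized, and Ly6G+ cells were depleted and gated out before RNA was made. Its RNA was at 31.8, 29.2, 33.5 and 17.9 RPM in WT, 59.2, 96.9, 70.8 and 139 RPM in Slc29a3-/-, and 39.8, 8.2, 2.77 and 15.7 RPM in Slc29a3-/- Tlr7-/- Ly6C hi libraries. Reads of Ly6g may be shared with close relatives in its gene family, which the table cannot show. Itgb2l, an integrin beta chain related to that of CD11b/CD18, was at 143, 145, 144 and 99.1 RPM in WT, 367, 362, 393 and 605 RPM in Slc29a3-/-, and 126, 33.1, 29.9 and 109 RPM in the double mutants. Both genes were higher in all Slc29a3-/- libraries than in any other library of the subset.

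The last 3 genes did not follow this order. Retnlg, which encodes a resistin-like secreted protein of neutrophils, was at 274, 289.5 and 261 RPM in WT replicates 1 to 3 but at 23.5 RPM in WT replicate 4. It had 25.95, 24.04, 33.5 and 62.3 RPM in Slc29a3-/- and 16.9, 8.53, 6.18 and 13.9 RPM in Slc29a3-/- Tlr7-/-, so the side of WT on which Slc29a3-/- fell depended on the WT library. Mmp9, the gelatinase of tertiary granules, had 76.0, 90.5, 79.3 and 17.9 RPM in WT, 15.9, 50.05, 26.6 and 56.4 RPM in Slc29a3-/-, and 23.6, 3.17, 1.35 and 5.77 RPM in the double mutants. Mmp8, the collagenase of secondary granules, had 235, 242, 232 and 408 RPM in WT, 156, 122, 118 and 123 RPM in Slc29a3-/-, and 131, 464, 303 and 198 RPM in the double mutants. The double mutant libraries with the most Mmp8, replicates 2 and 3, were those with the least Ltf, Lcn2, Camp, Ngp, Ly6g and Itgb2l.

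Differences were fitted with limma on log2(RPM + 1), and a call meant that the fold change exceeded 1.5 with p under 0.05 before adjustment. From WT to Slc29a3-/- Ly6C hi monocytes, 7 of 10 genes were called higher, beside 9.38% of the 10561 genes tested, and 2 lower, beside 17.3%. The log2 difference ranged from 1.46 ± 0.39 (SE) for Ngp to 2.73 ± 0.37 for Wfdc21 among the 7, and was -2.11 ± 0.63 for Retnlg, -1.07 ± 0.30 for Mmp8 and -0.74 ± 0.65 for Mmp9. When WT was replicate 4 alone, the 7 differences were 1.93 to 2.39, Mmp8 was at -1.65, and Retnlg turned to 0.51 and Mmp9 to 0.86. From WT to Slc29a3-/- Tlr7-/-, none was called higher, beside 329 of the 10561 genes tested. In that comparison 5 were called lower (Ltf, Ly6g, Itgb2l, Retnlg and Mmp9), beside 9.44%. With WT replicate 4 alone none of the 10 was called, but few genes were (0.745% higher and 1.32% lower), so nothing is read from this about the 10. From Slc29a3-/- Tlr7-/- to Slc29a3-/-, 9 were called higher, beside 10.5%, and Mmp8 was called lower, beside 11.9%. The difference itself takes no library of barcodes 11 to 16, but their spread entered the fit. That difference was largest for Ly6g (2.82 ± 0.52) and Itgb2l (2.77 ± 0.39) and -0.93 ± 0.30 for Mmp8. The 3 comparisons share libraries in pairs, and since the genes were selected on these contrasts the counts are a description. The 10 mature neutrophil markers summed to 11364 to 13513 RPM in WT, 34735 to 60951 RPM in Slc29a3-/- and 5879 to 19469 RPM in Slc29a3-/- Tlr7-/-, mostly from S100a8 and S100a9. The median log2 difference of the 8 tested from WT to Slc29a3-/- was 1.305, and 1.64 against WT replicate 4 alone. Of the 8, 5 were called higher in Slc29a3-/- than in WT (S100a8, S100a9, Cxcr2, Hdc and Mmp25), and 7 were called higher than in Slc29a3-/- Tlr7-/-. The other 3 were not called from WT to Slc29a3-/-, where the log2 difference was 0.08 for Csf3r, -0.13 for Il1r2 and -0.23 for Trem1. Asprv1 and Cxcl2 were not tested, and Cxcl2 was at 0 to 215 RPM in WT and at most 0.637 RPM in Slc29a3-/-. Summed markers of other cells were higher in WT replicates 1 to 3 than in Slc29a3-/-. In these WT libraries NK cell markers summed to 344 to 389 RPM, T cell markers to 74.9 to 82.3 RPM and eosinophil markers to 170 to 189 RPM. In Slc29a3-/- these sums were 17.2 to 33.8, 1.59 to 6.96 and 60.8 to 90.8 RPM, while B cell markers summed to 29.02 to 38.2 RPM in WT and 13.9 to 20.7 RPM in Slc29a3-/-. NK cell markers ran from 5.2 to 578 RPM in the double mutants. Of 4 eosinophil markers tested, 2 were called lower in Slc29a3-/- than in WT and 1 higher. The higher one, Siglecf, was at 5.46 to 15.1 RPM in Slc29a3-/- and at 3.47 to 6.02 RPM in WT. The part of these markers in the result was not tested.

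**Figure D2:**
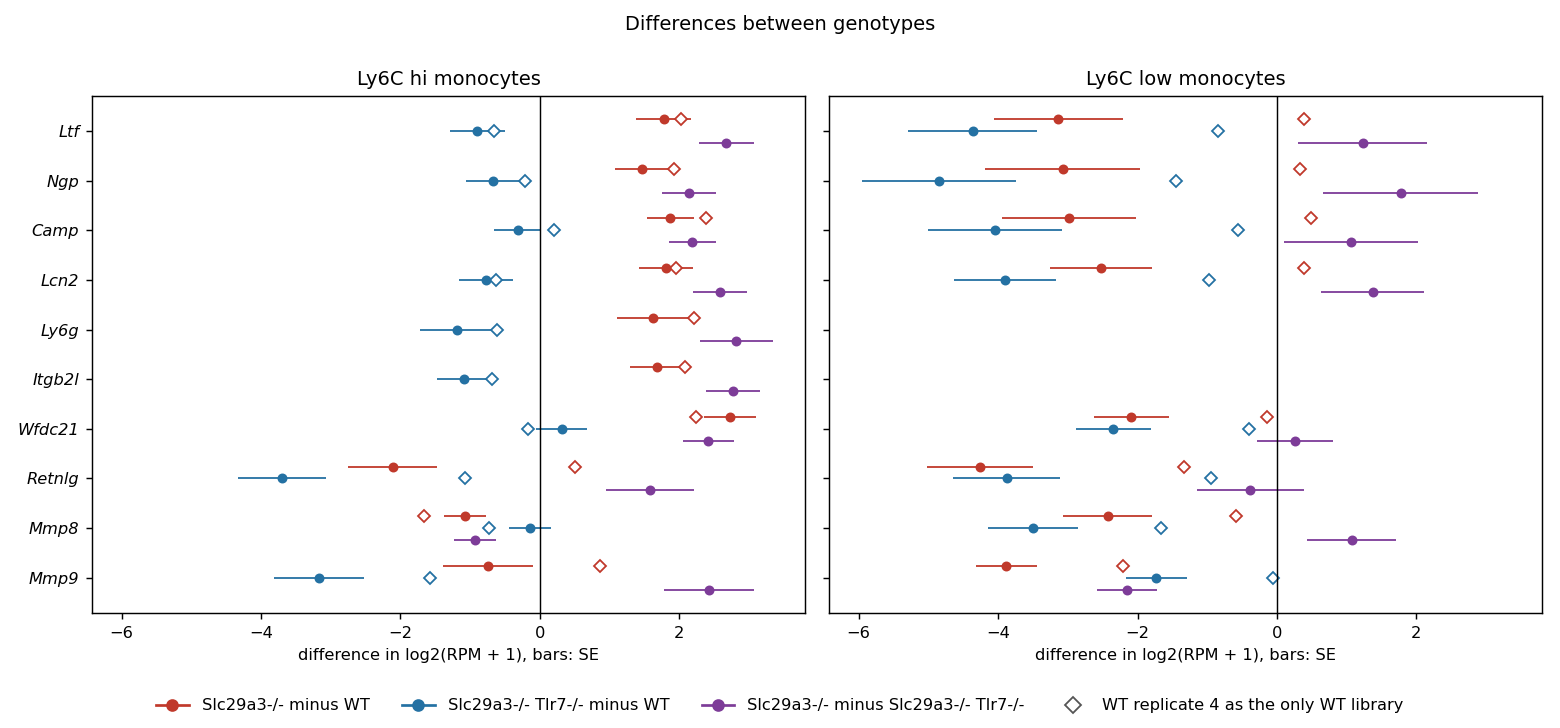
Difference in log2(RPM + 1) between genotypes for each gene, in Ly6C hi (left) and Ly6C low monocytes (right), with bars for the SE from limma and 4 libraries per genotype. Open diamonds give the comparison with WT replicate 4 alone, which moves the Ly6C low values of Ltf, Ngp, Camp and Lcn2 in Slc29a3-/- from between -3.14 and -2.53 to between 0.33 and 0.49. Ly6g and Itgb2l had too few reads in Ly6C low monocytes to be tested.

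In Ly6C low monocytes the genes were at far lower levels, and Mmp9 was the gene whose level differed between the mutants. All 4 Slc29a3-/- libraries lay below every other library for it. Mmp9 was at 27.7, 48.7, 25.5 and 6.21 RPM in WT, at 0.318, 0.32, 0.946 and 0.715 RPM in Slc29a3-/-, and at 5.82, 5.72, 5.29 and 6.87 RPM in Slc29a3-/- Tlr7-/-. Compared with the double mutants, Mmp9 fell by 2.15 ± 0.43 (SE) on the log2(RPM + 1) scale in Slc29a3-/- (adjusted p = 0.016, limma with Benjamini-Hochberg adjustment). Compared with WT it fell by 3.88 ± 0.43 (adjusted p = 0.00014). Without barcodes 11 to 16 the difference from the double mutants was again -2.15 (adjusted p = 0.002, limma). Against WT replicate 4 alone the log2 difference was -2.22 in Slc29a3-/- and -0.06 in the double mutants. With 1 WT library, the spread in that fit came from the mutant libraries only. Mmp9 was tested only because of its level in the other genotypes, as no Slc29a3-/- library reached 1 RPM. The p-values for Mmp9 are read with that limit. At these levels an Slc29a3-/- library held only a few reads of Mmp9. Alas2, which makes heme in erythroid cells, was also set apart in these 4 libraries, at 16.8, 22.3, 22.95 and 17.001 RPM against at most 3.95 RPM in the other Ly6C low libraries. Its rise against the double mutants was 3.64 ± 0.51 (SE, log2 scale, adjusted p = 0.0017, limma), and its part in the result for Mmp9 was not tested. In Ly6C hi monocytes of the same genotypes Mmp9 lay the other way, at 37.2 ± 19.1 RPM in Slc29a3-/- against 8.48 ± 10.3 RPM in the double mutants (SD, n = 4).

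For the other genes, Ly6C low libraries parted by WT replicate more than by genotype. Ngp was at 405, 753 and 332 RPM in WT replicates 1 to 3 and at 19.2 RPM in replicate 4, against 8.35, 29.4, 19.3 and 70.2 RPM in Slc29a3-/- and 21.2, 1.35, 0.789 and 30.9 RPM in the double mutants. Ltf was at 63.9, 157 and 59.9 RPM and then 2.3 RPM in WT, at 0.716, 3.68, 3.71 and 8.1 RPM in Slc29a3-/-, and at 3.55, 0, 0.789 and 0.4 RPM in the double mutants. Camp was at 61.2, 142, 49.1 and 2.07 RPM in WT, at 0.557, 3.6, 3.31 and 10.2 RPM in Slc29a3-/-, and at 1.37, 0, 0.316 and 4.95 RPM in the double mutants. WT replicate 4 lay within the range of the Slc29a3-/- libraries for all 3 genes.

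Lcn2 had 38.8, 71.0, 39.97 and 2.3 RPM in WT, 1.43, 2.8, 4.1 and 6.43 RPM in Slc29a3-/-, and 1.86, 0.159, 0.158 and 1.04 RPM in Slc29a3-/- Tlr7-/-. Wfdc21 had 7.69, 23.1, 8.43 and 1.07 RPM in WT, at most 1.35 RPM in Slc29a3-/- and at most 1.28 RPM in the double mutants. WT replicate 4 was again among the mutant libraries for Wfdc21 and within the Slc29a3-/- range for Lcn2. Retnlg had 60.0, 118, 64.2 and 4.21 RPM in WT, 0.636, 0.64, 1.5 and 1.75 RPM in Slc29a3-/-, and 3.31, 0, 1.42 and 4.08 RPM in the double mutants. Mmp8 had 16.005, 51.4, 23.0 and 4.06 RPM in WT, 3.42, 0.8, 3.31 and 2.78 RPM in Slc29a3-/-, and 4.04, 0.318, 0 and 0 RPM in Slc29a3-/- Tlr7-/-. For Retnlg and Mmp8 the 4 WT libraries did not overlap with either mutant, although replicate 4 lay just above the highest double mutant library.

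Ly6g and Itgb2l reached 1 RPM in Ly6C low monocytes in WT replicates 1 to 3 only. Ly6g was at 4.61, 7.96 and 4.71 RPM there, at 0 RPM in WT replicate 4, at 0 to 0.397 RPM in Slc29a3-/- and at 0 RPM in the 4 double mutant libraries, where 0 reads allow up to 0.244 RPM in a library. Itgb2l was at 3.5, 14.3 and 4.5 RPM, at 0.153 RPM in WT replicate 4, and at no more than 0.477 RPM in the mutants. A gene was tested if 4 or more of the 12 libraries of a subset held 1 RPM or more of it, and neither was. The 8 other genes were, and each of them also reached 1 RPM in at least 4 of the 8 mutant libraries. For Mmp9 these were the 4 double mutant libraries, and no Slc29a3-/- library reached 1 RPM (at most 0.946 RPM).

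From WT to Slc29a3-/- Ly6C low monocytes, the 8 tested genes were called lower, beside 7.05% of the 10317 genes tested. None of the 8 was called higher, beside 634 of the 10317. At an adjusted p under 0.05 the calls were Retnlg, Wfdc21, Mmp8 and Mmp9, beside 2.53%. From WT to Slc29a3-/- Tlr7-/-, the 8 were called lower, beside 14.6%, and all 8 also at an adjusted p under 0.05, beside 6.03%. The log2 difference ran from -4.85 ± 1.11 (SE) for Ngp to -1.73 ± 0.43 for Mmp9. Against WT replicate 4 alone, assumed to vary like the other groups, 1 of the 8 (Mmp9) was called lower in Slc29a3-/-, beside 5% of all genes, and none in Slc29a3-/- Tlr7-/-, beside 7.97%. The other calls were made only with the libraries of barcodes 11 to 16 included. Mature neutrophil markers summed to 965 to 1595 RPM in those libraries. Their sum was 342 RPM in WT replicate 4 and 221 to 359 RPM in the mutants. NK cell markers summed to 54.8 to 94.0, 16.7 and 1.91 to 28.9 RPM in the same order. Of 7 mature neutrophil markers tested, 6 were called lower than WT in each mutant, and 1 was called higher in the double mutants. Csf3r had a lower mean in WT (106 RPM) than in Slc29a3-/- (132 RPM) or Slc29a3-/- Tlr7-/- (160 RPM), with overlapping libraries. Trem1 and Csf3r had the highest means of these markers in both mutants, so the mutant sums mostly reflect these genes. The part of the neutrophil and NK cell markers in the result was not tested. Bulk RNA cannot tell more cells of a type from more RNA per cell.

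Between Slc29a3-/- and Slc29a3-/- Tlr7-/- Ly6C low monocytes, Mmp9 was the 1 gene of 8 that was called lower, beside 2.92% of all genes, and none was called higher, beside 10.8%. The log2 difference was 1.78 ± 1.11 for Ngp, 1.37 ± 0.73 for Lcn2, 1.23 ± 0.92 for Ltf, 1.07 ± 0.64 for Mmp8 and 1.06 ± 0.96 for Camp, none of them past the threshold. It was 0.26 ± 0.54 for Wfdc21 and -0.38 ± 0.77 for Retnlg. Without WT replicates 1 to 3, whose spread entered the fit, Lcn2 was called higher too, with the same difference and an SE of 0.41 (adjusted p = 0.18, limma).

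The 2 subsets were then set side by side. Over all 4 WT libraries the mean of a gene in Ly6C low was 2.78% (Ngp) to 41.0% (Mmp9) of its mean in Ly6C hi monocytes. In WT replicate 4, Ltf, Ngp, Camp, Lcn2, Itgb2l and Wfdc21 were at 0.154 to 0.369% of their Ly6C hi level, against 3.33 to 7.04% in WT replicates 1 to 3. In Slc29a3-/- the same 6 genes were at 0.0322 to 0.0836%, and in Slc29a3-/- Tlr7-/- at 0.0265 to 0.203%. Mmp9, Retnlg and Mmp8 kept more of their level. Mmp9 was at 41.5% in WT replicates 1 to 3, at 34.8% in WT replicate 4, at 69.8% in the double mutants and at 1.54% in Slc29a3-/-. On the log2(RPM + 1) scale the median difference of the 10 genes between Ly6C hi and Ly6C low was 4.78 in WT, 9.04 in Slc29a3-/- and 7.31 in Slc29a3-/- Tlr7-/-. Of the 7 genes that were higher in Slc29a3-/- Ly6C hi monocytes, 5 were tested in Ly6C low monocytes. None of the 5 was called higher in Slc29a3-/- Ly6C low than in WT, beside 634 of the 10317 genes tested. None was called higher than in the double mutants either, beside 10.8%. With such shares, nothing is read from these counts about the 5 genes. The difference between the subsets in the genotype effect was not tested.

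**Figure D3:**
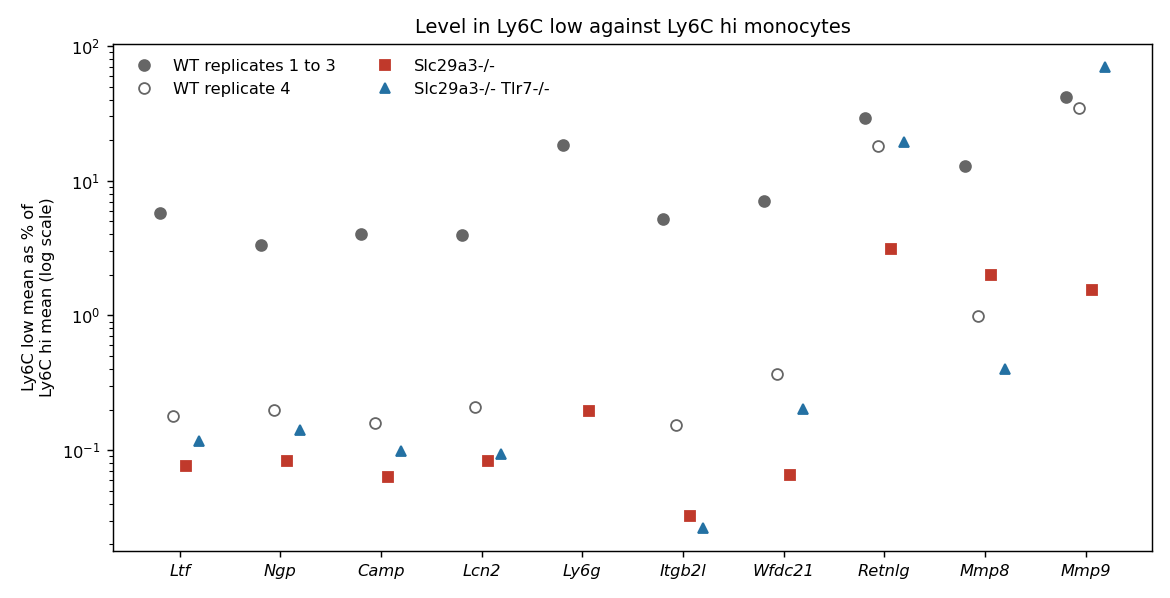
Mean level in Ly6C low as a percentage of the mean level in Ly6C hi monocytes for each gene, on a log axis, with WT replicates 1 to 3 (filled circles), WT replicate 4 (open circles), Slc29a3-/- (squares) and Slc29a3-/- Tlr7-/- (triangles). Ly6g has no point in WT replicate 4 or the double mutants, where it had 0 reads in Ly6C low, and Mmp9 has its lowest point, 1.54%, in Slc29a3-/-.

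Libraries of a genotype kept much the same order over the genes. Among Slc29a3-/- libraries, replicate 4 was the highest for 9 of 10 genes in Ly6C hi, all but Mmp8, and for 8 of 10 in Ly6C low, all but Mmp8 and Mmp9. Among Slc29a3-/- Tlr7-/- Ly6C hi libraries, replicate 3 was the lowest for 7 genes, and the highest was replicate 1 for 6 genes and replicate 4 for 3. WT replicate 4 was the lowest WT library for 8 of 10 genes in Ly6C hi and for all 10 in Ly6C low. The summed mature neutrophil markers fell into the same pairs in Ly6C hi monocytes of the double mutants, with 18622, 5879, 7661 and 19469 RPM in replicates 1 to 4, and replicate 4 of Slc29a3-/- had the highest sum, 60951 RPM.

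Primary granule and progenitor genes, which come before the secondary granules in the lineage, were also high in Slc29a3-/- Ly6C hi monocytes. Their 8 genes summed to 709 to 781 RPM in WT, 1773 to 4246 RPM in Slc29a3-/- and 696 to 1341 RPM in Slc29a3-/- Tlr7-/-. In both comparisons 7 of 7 tested were called higher in Slc29a3-/-. The median log2 difference of the 7 from WT to Slc29a3-/- was 2.18, and 1.85 against WT replicate 4 alone. Elane, which encodes neutrophil elastase, was at 225 to 734 RPM in Slc29a3-/- and at 90.0 to 237 RPM in the double mutants, against 79.1 to 102 RPM in WT. Prtn3, which encodes proteinase 3, had 369.6 to 1256 RPM in Slc29a3-/-, 146 to 207 RPM in WT and 148 to 391 RPM in the double mutants, so the mutants overlapped. Within Slc29a3-/-, replicate 2 had the lowest Elane and Prtn3, although it had more Ltf, Ngp and Camp than replicate 1. In Ly6C low monocytes, of 5 genes tested, 3 were called lower in Slc29a3-/- and 5 in the double mutants than in WT, among them Fcnb (ficolin B), Elane and Ms4a3 in both. Against WT replicate 4 alone, 1 of the 8 could be tested and was not called. The double mutants had 0.243 to 1.75 RPM of the 8 genes together, and Ms4a3 was at 0 in the 4 libraries.

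**Figure D4:**
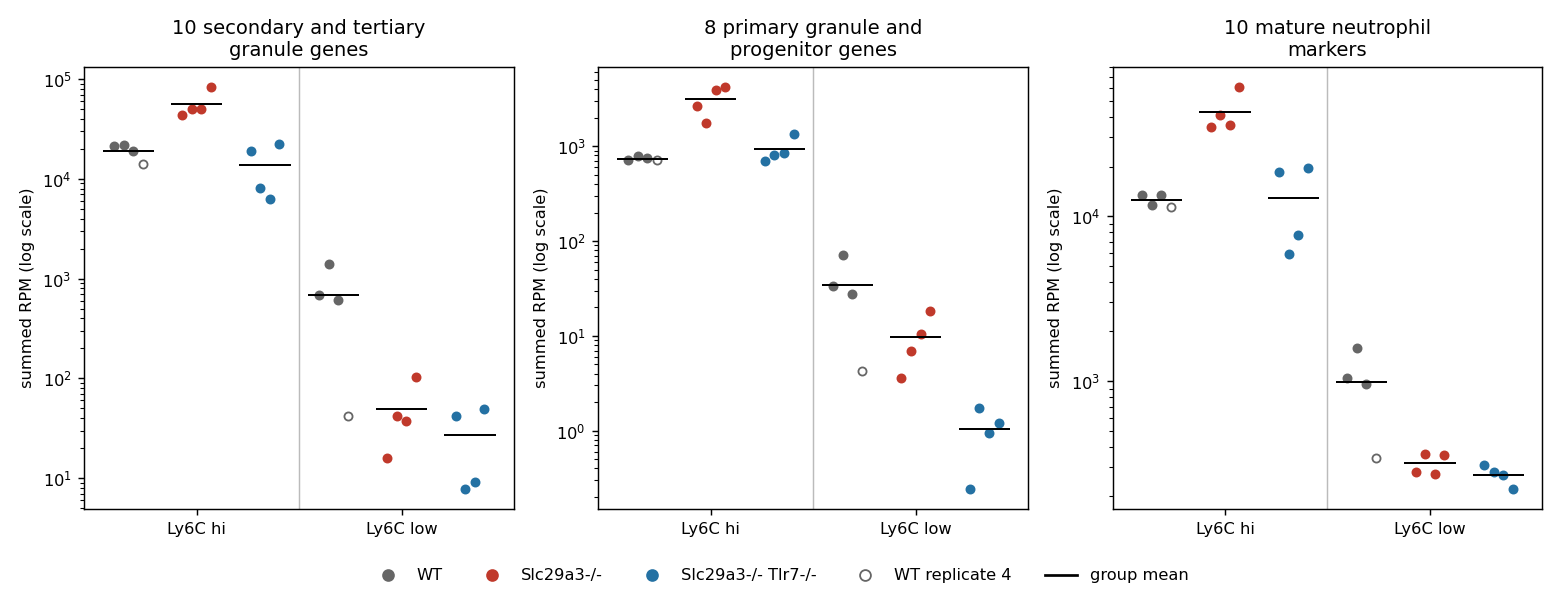
Summed RPM of the 10 genes, of 8 primary granule and progenitor genes and of 10 mature neutrophil markers in each library, on log axes. Points are libraries and bars are means of 4, and in all 3 panels every Slc29a3-/- Ly6C hi library lies above all other libraries.

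Of 22 other granule and neutrophil effector genes, 18 were matched and 15 were tested in Ly6C hi monocytes. In Slc29a3-/-, 8 were called higher and 1 lower than in WT, and 7 higher and 2 lower than in Slc29a3-/- Tlr7-/-. The median log2 difference of the 15 from WT to Slc29a3-/- was 0.65, and 0.60 against WT replicate 4 alone. Cd177, the neutrophil antigen that binds proteinase 3, was at 1215 to 1706 RPM in Slc29a3-/- and at 477 to 697 RPM in the other 2 genotypes. In Ly6C low monocytes, where 12 were tested, 2 were called lower (Slpi and Adam8) and 1 higher (Cybb) in Slc29a3-/- than in WT. Against WT replicate 4 alone, Slpi and Adam8 were still called lower (log2 differences of -1.85 and -1.87), Cybb was not called (0.11), and Lyz2 (0.65) and Itgb2 (0.82) were called higher. Slpi, an inhibitor of elastase, was at 2.4 to 6.62 RPM in Slc29a3-/-, at 15.9 to 25.8 RPM in WT and at 8.48 to 22.4 RPM in Slc29a3-/- Tlr7-/-. Adam8, a metalloprotease of the cell surface, was at 1.92 to 5.36 RPM, 9.27 to 15.6 RPM and 9.13 to 20.1 RPM. Like Mmp9, both were lower in every Slc29a3-/- library than in any other Ly6C low library. Against the double mutants they fell by 1.63 ± 0.34 and 1.68 ± 0.30 (SE, log2 scale, adjusted p = 0.022 and 0.0066, limma). Without barcodes 11 to 16 the adjusted p for Slpi was 0.087 and that for Adam8 0.025. The most abundant of this list, Lyz2 (lysozyme), Itgb2 (CD18) and Cybb (an oxidase subunit), are expressed by monocytes as well, and Lyz2 was at 7554 to 21951 RPM in Ly6C low libraries.

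Among 8 regulators of granule genes, 3 were called higher in Slc29a3-/- Ly6C hi monocytes than in WT and than in the double mutants, and these 3, named after their values were seen, were Cebpe, Gfi1 and Klf5. Cebpa, Cebpb and Cebpd were called lower than in WT, and Cebpa also lower than in the double mutants. Against WT replicate 4 alone the lower calls were not made. The median log2 difference of the 8 from WT to Slc29a3-/- was then -0.05, beside -0.29 with all WT libraries. Cebpe, which encodes C/EBP epsilon, was at 13.6 to 18.1 RPM in WT, 56.3 to 71.8 RPM in Slc29a3-/- and 7.47 to 21.4 RPM in Slc29a3-/- Tlr7-/-. Gfi1, a repressor needed for neutrophil maturation, was at 16.7 to 21.7, 49.6 to 111 and 17.6 to 25.9 RPM. Spi1, which encodes PU.1, was at 881 to 991 RPM in WT and 875 to 989 RPM in Slc29a3-/-. Cebpa, which acts earlier in the lineage, was lower in Slc29a3-/- (106 to 183 RPM) than in WT (209.7 to 346 RPM). In Ly6C low monocytes Cebpa and Cebpd were called lower in both mutants than in WT, and Klf5 and Runx1 in the double mutants. None of these was called against WT replicate 4 alone, where Klf5 was not tested and Cebpb was called higher in both.

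Of 10 inhibitors, receptors and partners of the granule proteins, 6 were tested. Timp1, an inhibitor of MMP9 that was named after its values were seen, had at most 0.404 RPM in any library. Fpr1, a formyl peptide receptor on phagocytes, was the 1 gene of this list called in Ly6C low monocytes. It was at 99.1 to 142 RPM in Slc29a3-/-, at 26.6 to 59.5 RPM in WT and at 18.6 to 31.6 RPM in Slc29a3-/- Tlr7-/-. It rose by 1.75 ± 0.24 (SE, log2 scale) against WT and by 2.21 ± 0.24 against the double mutants (adjusted p = 0.00095 and 0.00038, limma). Against WT replicate 4, the highest WT library, the difference was 0.96, which was still a call before adjustment but had an adjusted p of 0.34 (limma). Lrp1, a receptor that clears proteases and lactoferrin, was at 369.7 to 687 RPM in Slc29a3-/- Ly6C hi libraries and at 739.99 to 1285 RPM in the others.

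The genes whose pattern was most like the mean of the 10 over the 24 libraries, among 7492 genes with a mean of at least 10 RPM, were Chil1, Hdc, S100a8, S100a9, Nkg7, Fcnb, Slfn4 and Lrg1. Pearson's r was 0.983 for Chil1, a chitinase-like protein of specific granules, and 0.965 for Lrg1, and it includes the wide gap between the subsets that these libraries share. Chil1 was at 52.7 to 89.3 RPM in WT, 161 to 379 RPM in Slc29a3-/- and 19.1 to 72.9 RPM in Slc29a3-/- Tlr7-/- Ly6C hi libraries, with at most 8.1 RPM in Ly6C low. Hdc, which makes histamine, had 40.4 to 69.7, 148 to 256 and 24.6 to 84.4 RPM in these 3 groups. S100a8 and S100a9, subunits of calprotectin that Ly6C hi monocytes also express, had the widest range, and S100a9 ran from 0 RPM in a double mutant Ly6C low library to 40313 RPM in a Slc29a3-/- Ly6C hi library. Slfn4 differed from this order, with 109 to 162 RPM in WT and 108 to 130.2 RPM in Slc29a3-/- Ly6C hi libraries. Nkg7 overlapped between all genotypes in Ly6C hi, at 44.1 to 133 RPM in WT, 72.6 to 162 RPM in Slc29a3-/- and 31.9 to 151 RPM in Slc29a3-/- Tlr7-/-. Of the 10 genes themselves, Ltf was closest to the mean (r = 0.989) and Mmp9 farthest from it (r = 0.762).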

How the data were processed

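Reads of Ion AmpliSeq libraries, which amplify 1 short stretch per gene, had been scaled by the authors to reads per 1000000 (RPM), and these deposited RPM values were used. The methods of the study name Cutadapt, STAR on mm10 and HTSeq. The labels give the build as mm10, and the step that wrote the table is not given in the sources used here. The placeholder 0.0001 was set to 0. Columns were assigned by the barcode in the sample descriptions.

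For each subset, genes at 1 RPM or more in 4 or more of its 12 libraries were fitted with limma 3.58.1 (R 4.3.3) on log2(RPM + 1) with an intensity trend, and checked on simulated data. As in the methods of the study, calls needed a 1.5-fold change with p under 0.05 before adjustment. Calls after Benjamini-Hochberg adjustment over all genes tested (0.05) are given as well. Because the pseudocount is 1 RPM, log2 differences understate changes of low genes. Subsets were compared in 1 fit of 24 libraries. No replicates differed by less than counting noise. Lists were written by hand, with named genes being the 10 genes, those of the granule, regulator and partner lists that were called in Ly6C low monocytes or were the 3 most abundant, and the 8 most alike. Not every one of them is reported. The result of 1 marker list is not reported here. The members and lists were chosen with earlier results of these data known. Replicate numbers did not pair libraries of different genotypes (correlations of deviations of same-numbered libraries from -0.193 to 0.157). Between subsets, those of all 4 WT pairs were over 0.1 (0.259 to 0.619), so the numbers were taken to pair WT libraries of the 2 subsets. However, Ly6C hi WT replicate 2 correlated best with Ly6C low WT replicate 3, and Ly6C hi WT replicate 3 with Ly6C low WT replicate 1. WT replicate 4 also stood apart in both subsets, so pairing by number is not shown. For the mutants these correlations were not all over 0.1. Figures and tables came from matplotlib 3.10.9 and pandas 2.3.3 (Python 3.11.15). RPM intervals at 0 reads use 3 reads and cover counting error only.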

Additional observations from a re-analysis of the deposited data

Results flagged for a closer look

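In 8 of 60 gene and group combinations, 1 library lay farther from the other 3 than Dixon's 95% critical ratio for 4 samples allows. Chance alone gives about 1 in 20 for independent combinations. These genes vary together over the same libraries, so the rates cannot be compared. WT replicate 4 of Ly6C hi monocytes was low for Camp (1306 RPM), Itgb2l (99.1 RPM) and Retnlg (23.5 RPM) and high for Mmp8 (408 RPM). Slc29a3-/- replicate 4 of Ly6C hi monocytes was high for Ngp (57331 RPM) and Itgb2l (605 RPM). Slc29a3-/- replicate 1 of Ly6C hi monocytes was high for Mmp8 (156 RPM), and Slc29a3-/- Tlr7-/- replicate 1 of Ly6C low monocytes was high for Mmp8 (4.04 RPM, with 0 to 0.318 RPM in the other 3).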

How the results depend on the processing

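Low levels limit the Ly6C low results, where many values rest on a few reads. The planned count test on reads recovered from the RPM steps was not run. Scaling left the directions of called genes as they were. The median difference of all genes was -0.14 between Slc29a3-/- and WT and -0.12 between Slc29a3-/- and Slc29a3-/- Tlr7-/- in Ly6C hi monocytes. When WT was replicate 4 alone, genes of the 10 called lower in Ly6C low went from 8 to 1 in Slc29a3-/- and from 8 to 0 in Slc29a3-/- Tlr7-/-, and the log2 differences of Ltf (0.38), Ngp (0.33), Camp (0.49) and Lcn2 (0.39) from WT to Slc29a3-/- turned positive. In Ly6C hi, Retnlg turned to 0.51 in Slc29a3-/- against WT replicate 4 alone. The median log2 difference of the 10 genes was then 1.99 in Slc29a3-/- and -0.64 in Slc29a3-/- Tlr7-/-, beside 1.65 and -0.84 with all WT libraries. At an adjusted p, calls lower were 4 for Slc29a3-/- against WT in Ly6C low and 2 for Slc29a3-/- Tlr7-/- against WT in Ly6C hi. In Ly6C low, calls higher in Slc29a3-/- than in Slc29a3-/- Tlr7-/- went from 0 to 2 with a pseudocount of 0.1 and to 1 with only these 2 groups, with 1 fit of all 24 libraries, or without barcodes 11 to 16 (added after seeing the data), and leaving out 1 library gave 0 to 2. Leaving out WT replicate 4 gave Lcn2 and Ltf, and leaving out Slc29a3-/- Tlr7-/- replicate 1 or 4 gave Mmp8 or Ngp. In Ly6C hi, 1 fit of all 24 libraries gave 1 gene lower in Slc29a3-/- than in WT and 0 lower than in the double mutants. For Slc29a3-/- Tlr7-/- against WT, no filter and a fit of only these 2 groups each gave 3 lower, and leaving out 1 library gave 2 to 7 (3 without WT replicate 1, 2 or 3 or Slc29a3-/- Tlr7-/- replicate 2, and 2 without replicate 3). With a pseudocount of 0.1 the median difference between the subsets was 10.45 in Slc29a3-/- and 9.22 in Slc29a3-/- Tlr7-/-. The cause was not tested. Numbers did not pair libraries of different genotypes, and with the replicate number as a block 8, 8 and 1 of the genes were called lower in the 3 Ly6C low comparisons, as without it. In Ly6C hi, 6 in place of 5 were called lower in Slc29a3-/- Tlr7-/- than in WT. Between WT libraries of the 2 subsets, which were taken as paired by number although this is not shown, the median difference with the block was 4.78, as without it.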
